A study of Mus musculus with 9 samples.

Results

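The ribosome of the cytosol is built from ribosomal RNA and a set of ribosomal proteins, each coded by its own gene and each needed in about the same number of copies. The genes of the large (Rpl, 60S) and small (Rps, 40S) subunit are among the most strongly expressed in a growing cell, and pluripotent cells make ribosomes at a high rate. Their mRNAs typically begin with a 5′ terminal oligopyrimidine tract, through which mTORC1 and LARP1 set their translation, while MYC is known to promote their transcription and ribosome assembly.

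Cytosolic ribosomal protein genes were taken by name as protein-coding genes called Rpl or Rps with a number, together with Rplp0, Rplp1, Rplp2 and Rpsa. Of 84 genes with such a name, 83 were kept, having been chosen by a mean level of at least 1 FPKM (fragments mapped, scaled for gene length and library size) over the 9 libraries, out of 47729 genes in all. They comprised 51 genes of the large and 32 of the small subunit. The mean level was therefore used in the choice and is given as a description, while the change with time was not used. Just inside the limit lay Rpl39l at 1.99 FPKM, Rpl6l at 2.08 and Rpl10l at 2.81, and just outside lay Rpl3l at 0.145.

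The libraries came from mouse embryonic stem cells (ESCs) kept in LIF/serum, all of which carried a doxycycline (dox)-inducible transgene for a forced homodimer of the transcription factor E2A. The transgene encodes FLAG-tagged mouse E47 joined by a linker to a further E47, under a tet-response element, and was placed upstream of Hprt by cassette exchange. Libraries were taken without dox (0 h) and after 18 h and 24 h of dox at 1 µg/ml, with 3 replicates at each of the 3 time points. All 3 groups share the same inducible line, and no dox-treated cells without the transgene were analysed here, so the effects of dox and of the homodimer cannot be told apart. The protocol text of the labels names other times, whereas the titles and treatment entries give 18 h and 24 h, which were used.

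Reads on genes numbered 22028363 to 26471569 per library. Tcf3, which encodes E2A and whose reads include those of the transgene, measured 39.1 ± 1.80 FPKM without dox, 110.1 ± 5.52 after 18 h and 102.0 ± 7.55 after 24 h (mean ± SD, n = 3). Compared with 0 h its log2 fold-change was 1.49 and 1.38, with limma adjusted p values of 2.37e-05 and 3.11e-05. Of 14 ESC markers all were measured, with Sox2 at 88.9 ± 8.71 FPKM and Pou5f1 at 371.3 ± 53.3 at 0 h. Without the block limma called 4 of them lower and 2 higher at 24 h, where 5.11% of all genes were called lower and 6.52% higher, and 7 and 3 with it (12.5% and 13.6%). Lower were Tdgf1 (log2 fold-change -1.46, adjusted p 0.000115), Fgf4 (-1.25, 0.017), Pou5f1 and Lin28a, and higher were Nanog (0.86, 0.00735) and Dppa3 (0.98, 0.042), the last 4 named after their values were seen. Of 12 fibroblast markers, 9 passed the filter on low values, led by Acta2 at 30.5 ± 11 FPKM without dox and 56.6 ± 18.3 after 24 h, while the collagen genes Col1a1 and Col1a2 stood at 2.18 ± 0.857 and 3.01 ± 1.91 at 0 h. Of these 9, limma without the block called 1 higher at 24 h, Pdgfrb (log2 fold-change 1.096, adjusted p 0.0185), and 1 lower, Thy1 (-0.74, adjusted p 0.0494), the latter named after its value was seen, and with the block it called 2 higher and 2 lower.

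The promoters of the members are shown here because these genes are expressed together. In the RefSeq promoter table for GRCm38.p6, 62 of the 83 members had an entry, each reaching 250 bases before and 50 after the gene start. Below are 60 bases centred on the start of abundant members (Rps12, Rpl4, Rpl13a), of those with little change (Rps4x, Rpl10) and of second copies (Rpl22l1, Rpl10l, Rpl39l), 5′ to 3′ on the gene's strand, with matches to the letters CTTTCC or CCGGAAG on either strand in capitals.
Rps12 (chr10:23787180-23787239, minus strand): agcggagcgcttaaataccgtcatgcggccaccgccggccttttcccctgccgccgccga
Rpl4 (chr9:64173357-64173416, plus strand): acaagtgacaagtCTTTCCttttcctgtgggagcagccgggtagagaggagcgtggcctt
Rpl13a (chr7:45128716-45128775, minus strand): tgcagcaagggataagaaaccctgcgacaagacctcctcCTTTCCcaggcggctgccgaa
Rps4x (chrX:102189362-102189421, minus strand): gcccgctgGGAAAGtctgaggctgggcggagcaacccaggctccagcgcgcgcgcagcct
Rpl10 (chrX:74270786-74270845, plus strand): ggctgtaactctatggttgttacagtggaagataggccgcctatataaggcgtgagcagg
Rpl22l1 (chr3:28805478-28805537, plus strand): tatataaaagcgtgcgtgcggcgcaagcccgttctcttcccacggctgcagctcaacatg
Rpl10l (chr12:66284372-66284431, minus strand): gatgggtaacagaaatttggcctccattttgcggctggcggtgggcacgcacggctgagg
Rpl39l (chr16:10170198-10170257, plus strand): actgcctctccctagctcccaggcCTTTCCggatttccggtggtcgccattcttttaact

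Over the whole 300-base entries, CTTTCC, a run of pyrimidines, was searched at any position on either strand. It occurred in 33 of 62 members (53.2%) and in 29.3% of all 27025 genes in the table. The count therefore does not measure the oligopyrimidine tract at the start of these mRNAs. The letters CCGGAAG, the core that ETS factors such as GABPA bind, occurred in 26 members (41.9%) and in 9.93% of all genes. The E-box letters CAGGTG and CAGCTG, which E2A can bind, occurred in 6 members (9.68%) and 3 members (4.84%), against 22.6% and 18.3% of all genes, and CACGTG, the E-box of MYC, in 6 members (9.68%) against 8.09%. AAGATGG, the core of a YY1 site, occurred in 10 members (16.1%) against 7.28%, and TATAAA in 7 members (11.3%) against 15.7%. These matches are letters in a window and do not show binding. Members with CTTTCC had a median log2 fold-change of -0.15 at 24 h compared with 0 h (n = 33) and those without it -0.12 (n = 29). With and without CCGGAAG the medians were both -0.13 (n = 26 and 36).

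The members spanned 3 orders of level. The small-subunit gene Rps12 (2871 FPKM, mean over 9 libraries) and the stalk protein gene Rplp1 (2864) were highest, followed by Rpl8 (2166), Rpl4 (2011) and Rpl13a (1613). In single libraries Rps12 ran from 2554 to 3181 FPKM and Rplp1 from 2566 to 3256, so these neighbours in the order overlapped. At the other end were Rpl34 (93.0), Rpl24 (27.4), Rpl10l, Rpl6l and Rpl39l. Of all members, 79 had a mean of at least 90 FPKM and 16 a mean of at least 1000. The median member stood at 379.5 FPKM in the large and 605.3 in the small subunit. Members held 10 of the 20, 31 of the 50 and 47 of the 100 highest places among all genes tested.

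**Figure D1:**
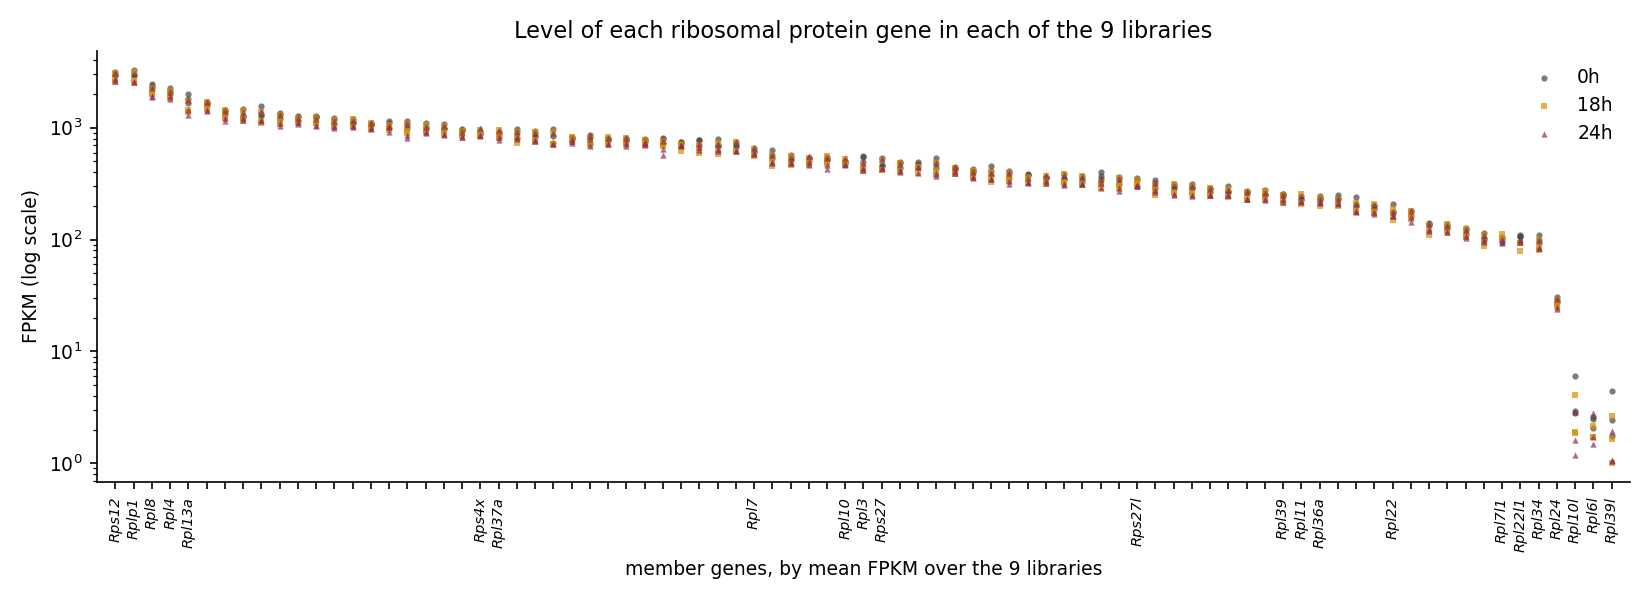
FPKM (log axis) of each of the 83 ribosomal protein genes, ordered by mean level, with one point per library (circles 0 h, squares 18 h, triangles 24 h) and names under the members described in the text. From Rps12 at 2871 to Rpl34 at 93.0 the order falls without a break, and Rpl10l, Rpl6l and Rpl39l stand apart near the limit of 1 FPKM.

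Many members have near copies elsewhere, so their levels are uncertain where reads could be split between copies. In the GENCODE M21 transcripts of GRCm38, 80 members shared at least one stretch of 50 bases with another gene, the median member shared 37.1% of its 50-base stretches and had 8 pseudogenes among the sharing genes, and 28 members shared over 50%. Rpl35 shared most (95.1%), while Rpl39l shared none. The table also listed processed pseudogenes at high levels, such as Rps3a3 at 602.0 ± 19.1 FPKM at 0 h. Among the 20 members with at most 25% shared, the median log2 fold-change was -0.12 at 18 h and -0.13 at 24 h compared with 0 h, and among the 62 with more it was -0.11 and -0.12. Of the members, 30 held snoRNA genes (58 in all) inside their gene bodies, whose products guide the modification of ribosomal RNA. These hosts had a median log2 fold-change of -0.13 at 24 h and the other 53 members -0.12. The members lay on 19 chromosomes, with no cluster used in the choice.

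Members took up 7.80%, 6.96% and 7.32% of all reads on genes in replicates 1, 2 and 3 at 0 h. They took up 7.49%, 6.47% and 6.86% at 18 h, and 7.49%, 6.57% and 6.76% at 24 h. Replicate 1 was highest and replicate 2 lowest at every time point, and the time points overlapped. Within each replicate number, however, the share was lower at 18 h and at 24 h than at 0 h. The Wilson 95% interval of each share reached at most 0.0109 percentage points to either side, for counting error only, so depth did not limit this comparison.

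The mean share was 7.36 ± 0.425% at 0 h, 6.94 ± 0.518% at 18 h and 6.94 ± 0.485% at 24 h (SD, n = 3). The relative change from 0 h was -5.69% at 18 h (same-numbered pairs -3.97%, -7.05% and -6.22%) and -5.70% at 24 h (-4.02%, -5.55% and -7.63%). The change at 18 h was -9.44% without replicate 1 at 18 h, -2.46% without replicate 2 at 18 h and -2.76% without replicate 1 at 0 h. The change at 24 h was -9.42% without replicate 1 at 24 h, -3.18% without replicate 2 at 24 h and -2.77% without replicate 1 at 0 h. The exact permutation test, two-sided and with 3 libraries against 3, gave p = 0.4 and p = 0.3, where the smallest p it allows is 0.1. This test disregards the pairing, so the spread between replicate numbers enters its p. All 12 such tests of shares and of the subunit ratio gave a Benjamini–Hochberg adjusted permutation p of at least 0.686. Between 18 h and 24 h the share moved by -0.00911% of its value, and its sign differed among the pairs. As a share of summed FPKM, which weights genes by length, the members made up 17.0%, 15.6% and 16.4% at 0 h and the relative change was smaller, -2.71% at 18 h and -2.94% at 24 h. In shares of bulk RNA, fewer cells with a high level, less of this RNA per cell and more RNA of other genes cannot be told apart.

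Large-subunit genes took 4.34 ± 0.233% of reads at 0 h, 4.06 ± 0.288% at 18 h and 4.06 ± 0.273% at 24 h, a relative change of -6.44% and -6.45%. Small-subunit genes took 3.02 ± 0.191%, 2.88 ± 0.230% and 2.88 ± 0.213%, a relative change of -4.60% and -4.61%. The size rested on single libraries. Over libraries left out the large-subunit change ran from -10.01% to -3.45% at 18 h and from -10.04% to -3.75% at 24 h, and the small-subunit change from -8.62% to -1.03% and from -8.54% to -1.35%. Each was most negative without replicate 1 at the dox time and nearest 0 without replicate 2 at 18 h or, for 24 h, without replicate 1 at 0 h. As shares of summed FPKM these changes were smaller, -3.54% and -3.98% for the large and -1.57% and -1.53% for the small subunit, and in replicate 1 the small-subunit share was higher after dox, by 0.672% at 18 h and 0.384% at 24 h. Of the summed FPKM of protein-coding genes alone it was lower in that replicate (relative change -1.56% and -1.69%), so this direction turned with the denominator, and the mean changes were -4.56% and -4.39% for the large and -2.61% and -1.96% for the small subunit. The ratio of small- to large-subunit reads was 0.701, 0.687 and 0.694 in replicates 1, 2 and 3 at 0 h. It was 0.713, 0.700 and 0.710 after 18 h of dox and 0.712, 0.699 and 0.713 after 24 h. The ratio was higher after dox in all 3 same-numbered pairs at both times, by 1.77% to 2.30% at 18 h and by 1.55% to 2.70% at 24 h, while the groups overlapped and the exact permutation p was 0.2 at both times. From summed FPKM in place of reads, the ratio was 0.735 ± 0.00578 at 0 h, 0.750 ± 0.00632 at 18 h and 0.754 ± 0.00448 at 24 h, and no library after dox overlapped those at 0 h (exact permutation p = 0.1 at both times, the smallest possible).

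**Figure D2:**
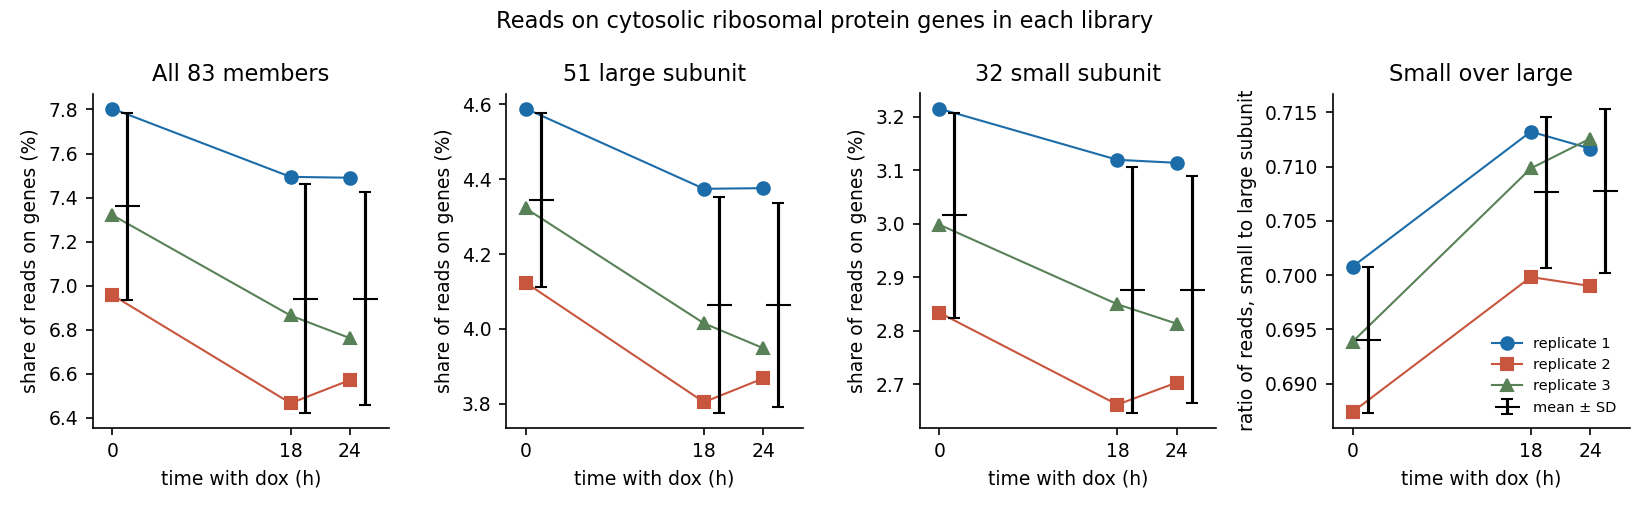
Share of reads on genes (%) for all members, the large and the small subunit, and the ratio of small- to large-subunit reads, against time with dox (h), with lines joining the libraries of one replicate number and black bars for mean ± SD (n = 3, vertical axes not from 0). In the 3 panels of shares every line falls from 0 h to 18 h (7.80% to 7.49% of all reads in replicate 1) and the lines keep their order, while the ratio rises in each replicate. The bars are drawn beside their time point.

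Gene by gene, most members had a slightly negative fold-change after dox, except under quantile normalization, which can itself remove a change shared by abundant genes. Few of them were called without the replicate block. In the limma fit of log2(FPKM + 0.1), where a fold-change understates the change of low genes, 81 of 83 members had a negative log2 fold-change at 18 h compared with 0 h, and all 83 at 24 h. The median member changed by -0.12 at 18 h and -0.13 at 24 h, that is by -7.68% and -8.46%, beside medians of -0.0030 and 0.0040 over all 17951 genes tested. Leaving out 1 library moved the median member to between -0.18 (without replicate 1 at 18 h) and -0.057 (without replicate 2 at 18 h) for 18 h, with -0.073 without replicate 1 at 0 h. For 24 h it lay between -0.19 (without replicate 1 at 24 h) and -0.086 (without replicate 2 at 24 h). Large- and small-subunit members had medians of -0.13 and -0.10 at 18 h, and of -0.14 and -0.12 at 24 h. The spread between replicates (SD 0.105 of the median member's log2 level) was about as large as these changes.

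Lower in all 3 same-numbered pairs were 68 members at 18 h, where 26.3% of all genes were, and 69 members at 24 h, where 27.6% of all genes were. Without regard to the pairing, every library after dox lay below every library at 0 h for 11 members at 18 h (Rplp0, Rpl7a, Rps27a, Rpl26, Rpl3, Rpl13, Rpl27, Rpl10a, Rpl15, Rps15a and Rpl22l1), against 13.7% of all genes. At 24 h this held for 6 members (Rplp0, Rpl7a, Rps27a, Rpl3, Rpl27 and Rpl22l1), against 14.6% of all genes, so these shares were not above the background. No member was higher in every library after dox than in every library at 0 h, as were 14.4% of all genes at 18 h and 16.7% at 24 h.

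The count of members called depended on the replicate block. Without the block, limma called 1 member lower at 18 h (background 3.72% of all genes) and none at 24 h (background 5.11%), where 8 were lower at an unadjusted p under 0.05 (background 13.2%), edgeR called 1 (background 6.05%) and DESeq2 called 3 (background 7.41%). With the replicate number as a block, limma called 22 members lower at 18 h (background 10.7%) and 37 at 24 h (background 12.5%), of which 19 were called at both times. None was called higher in any of these 4 fits, against a background of 4.27% and 6.52% without the block and of 10.8% and 13.6% with it. edgeR on the recovered reads with the block called 34 members lower at 18 h (background 13.1%) and 47 at 24 h (background 14.9%). Without it, edgeR called 2 at 18 h (background 4.54%) and DESeq2 3 (background 6.03%). The blocked limma counts also moved with the scaling. With median centring added they were 28 at 18 h (background 13.4%) and 67 at 24 h (background 19.7%), and with quantile normalization added 5 lower and 1 higher at 18 h (background 9.53% and 11.4%) and 2 lower at 24 h (background 11.3%). By subunit, the blocked limma calls were 17 large and 5 small at 18 h, and 26 large and 11 small at 24 h. Leaving out 1 library at a time left 5 to 35 blocked calls at 18 h and 6 to 44 at 24 h, with the highest counts when replicate 1 at 0 h was left out and lower counts when any other of the 6 libraries compared was left out.

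**Figure D3:**
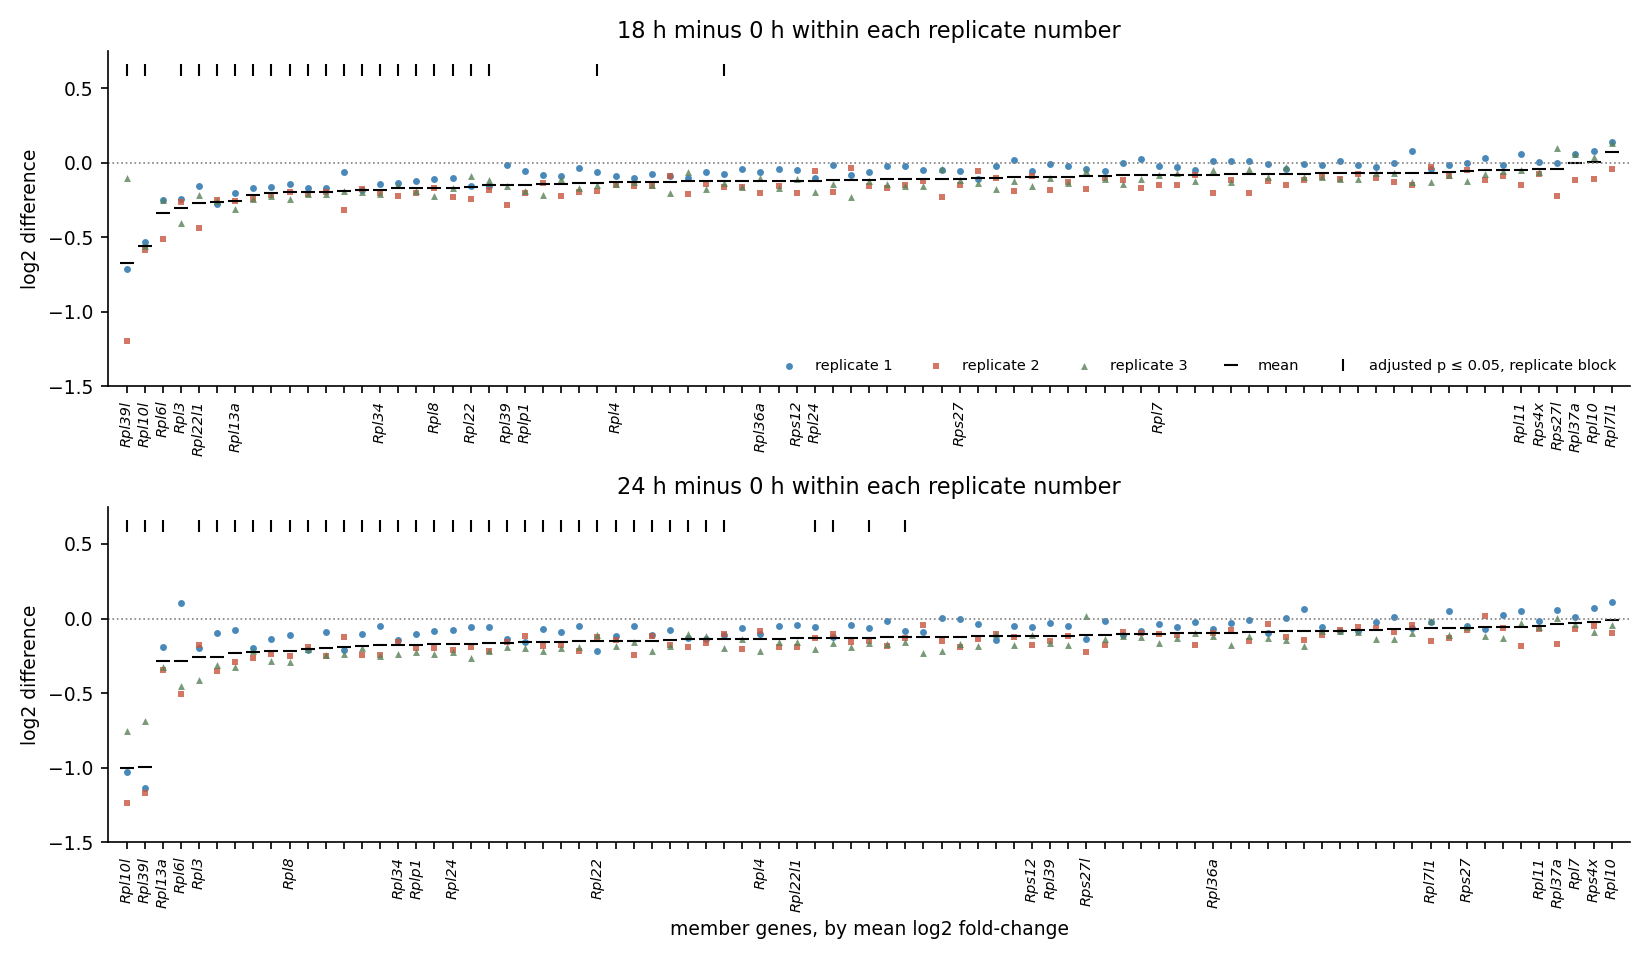
Log2 difference from 0 h of each member within each replicate number (coloured points), its mean (dash) and a tick where limma with the replicate block gave an adjusted p of at most 0.05, for 18 h (top) and 24 h (bottom), with names under the members described in the text. The means of 81 and 83 members lie below 0 (about as many above as below under quantile normalization), 22 and 37 carry a tick, and Rpl10l and Rpl39l lie lowest.

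Other abundant genes also had negative medians, and no test of the difference between them and the members was made. Members with a mean of at least 500 FPKM had a median log2 fold-change of -0.12 at 24 h (n = 40) and other genes at that level -0.13 (n = 37). Between 100 and 500 FPKM both medians were -0.13 (n = 37 and 390), between 10 and 100 FPKM other genes had a median of -0.048, and between 1 and 10 FPKM one of 0.057. At 18 h, members at 500 FPKM or more had a median of -0.10 and other genes -0.084, and between 100 and 500 FPKM the medians were -0.12 and -0.075. Other abundant genes were less uniform in sign, with 83.8% of them below 0 at or above 500 FPKM at 24 h compared with all 40 members. Quantile normalization, which gives every library the same distribution of levels, took the median member to -0.0055 at 18 h and 0.0029 at 24 h, with 42 and 38 of 83 members below 0. Median centring took the median member to -0.15 and -0.20. Members held 47 of the 100 highest places, so quantile normalization can itself remove a change that abundant genes share. Its values near 0 therefore cannot show that the members did not change.

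**Figure D4:**
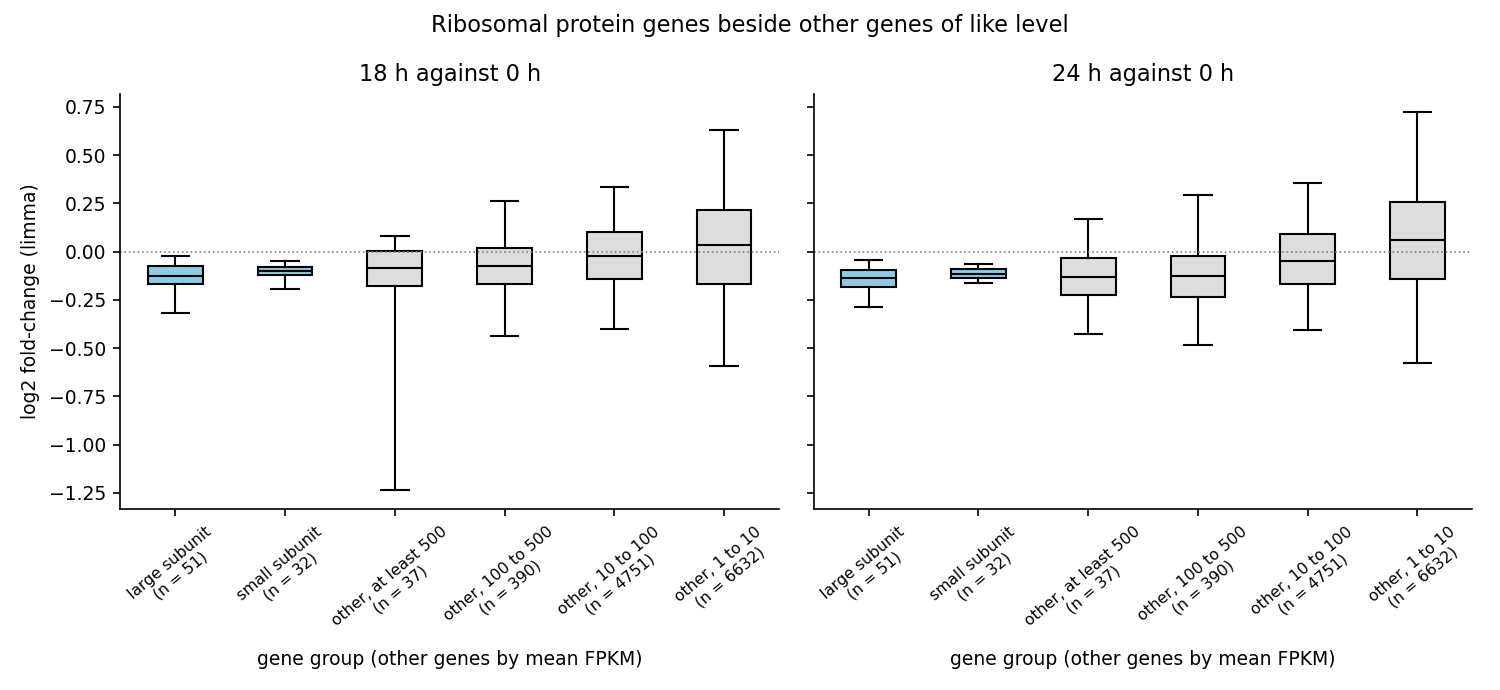
Log2 fold-change of large- and small-subunit members (blue) and of other genes grouped by mean FPKM (grey) at 18 h and 24 h compared with 0 h, with boxes for the quartiles and whiskers for the 5th and 95th percentiles. Member medians of -0.13 and -0.10 at 18 h and -0.14 and -0.12 at 24 h lie level with those of other genes at 100 FPKM or more at 24 h, and all of these are near 0 under quantile normalization.

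Between 18 h and 24 h no member was called by limma with or without the block, by edgeR with or without it, or by DESeq2. An unadjusted p under 0.05 was reached by 0 members without the block and 3 with it in limma, and by 0 and 5 in edgeR, against 5.59% and 12.3% of all genes in limma and 5.12% and 13.3% in edgeR. Among all genes, 0.00557% were called lower without and 0.0111% with the block. The median member changed by -0.012, 51 of 83 members were negative, and 24 were lower in all 3 same-numbered pairs, where 20.2% of all genes were. Only Rpl7l1 was lower in every library at 24 h than in every library at 18 h, as were 6.04% of all genes, and only Rpl22l1 was higher in every library, as were 6.81% of all genes.

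Among the abundant members, Rpl13a, whose product also serves in transcript-selective translational silencing, had the lowest log2 fold-change at 24 h. It lies on the minus strand at chr7:45125558-45128761 (GRCm38) and holds 4 snoRNA genes. Replicates 1 to 3 measured 2001, 1655 and 1798 FPKM without dox. After 18 h they measured 1736, 1386 and 1450 FPKM, and after 24 h 1756, 1303 and 1433. Replicate 1 after dox overlapped the 0 h libraries, but each pair fell. Its log2 fold-change was -0.26 (SE 0.13) at 18 h and -0.29 (SE 0.13) at 24 h. The limma adjusted p values were 0.259 and 0.190 without the block and 0.00992 and 0.00541 with it. Under quantile normalization the fold-change at 18 h turned slightly positive.

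Rpl3, a core protein near the peptidyl transferase centre, lies on the minus strand at chr15:80077791-80091868. Replicates 1 to 3 measured 551.7, 494.0 and 557.7 FPKM without dox. They measured 466.7, 411.6 and 421.1 FPKM after 18 h of dox and 481.9, 437.6 and 418.6 after 24 h, so every library after dox was below every one at 0 h. Its log2 fold-change was -0.30 (SE 0.081) for 18 h and -0.26 (SE 0.081) for 24 h. The limma adjusted p was 0.0519 and 0.0670 without the block, 0.00870 and 0.0120 with it, and edgeR without the block gave 0.0282 and 0.0398. It shared 67.1% of its 50-base stretches with other genes.

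The remaining highest members had smaller fold-changes. Rpl8 went from 2362 ± 103 FPKM without dox to 2102 ± 155 after 18 h and 2034 ± 212 after 24 h, with blocked limma adjusted p values of 0.0446 and 0.0162. Rplp1, of the acidic stalk that recruits elongation factors, measured 3079 ± 156, 2783 ± 305 and 2732 ± 256, with 0.0631 and 0.0341. Rpl4 measured 2135 ± 112, 1953 ± 146 and 1945 ± 138 and Rps12 3026 ± 134, 2790 ± 266 and 2797 ± 238, and neither was called by limma with the block, while edgeR with the block called both at both times (adjusted p of 0.0245 and 0.0129 for Rpl4 and of 0.0409 and 0.0335 for Rps12). Under quantile normalization the fold-change turned positive for Rps12 at both times and for Rpl4 at 24 h. Rpl34 and Rpl24, the lowest of the main copies, had log2 fold-changes of -0.18 and -0.17 at 24 h. Their blocked limma adjusted p values were 0.0111 and 0.0392.

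Several members had a fold-change near 0 at 24 h. Rpl10, which joins the large subunit at a late step of its assembly, measured 494.8, 504.6 and 474.4 FPKM without dox and 533.9, 472.1 and 459.9 after 24 h of it. Its log2 fold-change was -0.010 at 24 h, with a 95% interval of -0.18 to 0.16. Rps4x, the X-linked copy of a small-subunit gene, measured 910.3 ± 28.8 FPKM at 0 h and 896.6 ± 78.2 at 24 h (log2 fold-change -0.025, interval -0.20 to 0.15). Rpl37a was at 869.5 ± 47.8 and 850.0 ± 91.0, Rpl7 at 627.8 ± 25.6 and 614.2 ± 40.6 (and at 593.2 ± 48.6 after 18 h, a log2 fold-change of -0.084), and Rpl11, which with Rpl5 can bind MDM2, at 234.9 ± 11.8 and 227.5 ± 15.6. None of these 5 was called at 18 h or 24 h by limma, and their 95% intervals without the block include changes as large as the median member's. With the block the intervals of Rps4x (-0.125 to 0.075) and Rpl7 (-0.122 to 0.056) at 24 h do not reach the median member's -0.127. Both were named for being among the highest fold-changes at 24 h, so this cannot show that they differ from other members. The 4 members on the X chromosome had a median log2 fold-change of -0.061 at 24 h.

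Second copies of ribosomal protein genes are often used in particular tissues. Rpl10l and Rpl39l, known for their expression in the male germ line, were detected at low levels and had the lowest fold-changes of all members at 24 h. Rpl10l, a gene of 1 exon on the minus strand at chr12:66283379-66284401, measured 5.98, 2.93 and 2.79 FPKM in replicates 1 to 3 without dox. It measured 4.10, 1.92 and 1.86 FPKM after 18 h of dox and 2.89, 1.19 and 1.62 after 24 h. These values rest on 31 to 146 reads. Replicate 1 was highest at each time, each pair fell, and replicate 1 at 24 h lay among the 0 h libraries. Its log2 fold-change was -0.56 (SE 0.41) for 18 h and -1.005 (SE 0.41) for 24 h. Without replicate 1 at 0 h these were -0.21 and -0.66, and leaving out each library in turn gave -0.92 to -0.21 for 18 h and -1.34 to -0.66 for 24 h. The limma adjusted p was 0.437 and 0.149 without the block and 0.0130 and 0.00143 with it. With the block at 24 h it was the only member past a log2 fold-change of 1 in size, where 1.17% of all genes were called lower by that size. No member passed both limits at 24 h without the block (background 0.836%) or at 18 h without or with it (background 0.724% and 1.11%).

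Rpl39l, on the plus strand at chr16:10170226-10174911, measured 4.39, 2.46 and 1.77 FPKM in replicates 1 to 3 without dox. It measured 2.63, 1.01 and 1.64 FPKM after 18 h of dox and 1.94, 1.04 and 1.06 after 24 h, on 21 to 87 reads. Again each pair fell while the groups overlapped. The log2 fold-change was -0.67 (SE 0.40) and -0.998 (SE 0.40), just short of 1 in size at 24 h, with limma adjusted p values of 0.0444 and 0.010 with the block and 0.333 and 0.142 without it. Without replicate 1 at 0 h the values were -0.33 and -0.65, and the range over libraries left out was -0.997 to -0.33 for 18 h, with -0.35 without replicate 2 at 18 h, and -1.28 to -0.65 for 24 h. It made up 1.12 ± 0.511% of the FPKM of Rpl39 and Rpl39l at 0 h and 0.567 ± 0.178% at 24 h, and Rpl10l made up 0.786 ± 0.354% and 0.379 ± 0.146% of the FPKM of Rpl10 and Rpl10l. The exact permutation p of these changes in share was 0.2 and 0.1, where 0.1 is the smallest the design allows. The share of Rpl39l changed by -0.552 percentage points at 24 h and that of Rpl10l by -0.406, and by -0.265 and -0.201 without replicate 1 at 0 h. Rpl6l, listed as protein-coding in the table but as a processed pseudogene in GENCODE M21, measured 2.39 ± 0.277 FPKM at 0 h and 2.0 ± 0.695 at 24 h and was not called in either limma fit, and its replicate 1 was higher at 24 h (2.79 FPKM) than at 0 h (2.60).

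Rpl22l1, which can stand in for Rpl22 and is known to affect splicing, was the only member called by limma without the block. It lies on the plus strand at chr3:28805436-28807424. Replicates 1 to 3 measured 104.4, 107.9 and 108.9 FPKM without dox. They measured 93.8, 79.6 and 93.8 FPKM after 18 h of dox and 101.5, 94.4 and 97.6 after 24 h. Every library at 18 h was below every library of both other time points. Its log2 fold-change was -0.27 (SE 0.070, limma adjusted p 0.0477 without the block and 0.0174 with it) at 18 h and -0.13 (SE 0.070, adjusted p 0.253 and 0.133) at 24 h. The call at 18 h was lost with no filter on low values, with no intensity trend, with a fit to just these 2 time points and under quantile normalization, and also without any 1 of the 6 libraries compared, where the log2 fold-change lay between -0.31 and -0.19. Rpl22 itself measured 187.4 ± 17.3 FPKM at 0 h and 168.3 ± 8.45 at 24 h. The share of Rpl22l1 in the pair was 36.5 ± 2.57% without dox, 34.7 ± 1.26% after 18 h and 36.8 ± 0.536% after 24 h, and each 24 h library lay above each 18 h library (exact permutation p = 0.1).

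Rpl7l1 had the highest log2 fold-change at 18 h (0.073, SE 0.061, 95% interval -0.065 to 0.21), and limma did not call it in any comparison. It measured 100.4 ± 5.25 FPKM without dox, 105.6 ± 5.59 after 18 h and 96.0 ± 3.69 after 24 h. Its share beside Rpl7 was 13.8 ± 0.635%, 15.1 ± 0.362% and 13.5 ± 0.340%, and every 18 h library lay above all others (exact permutation p = 0.1). Rps27l, a p53 target, measured 330.5 ± 28.6, 320.3 ± 17.9 and 304.9 ± 3.83 FPKM, with a share beside Rps27 of 40.5 ± 2.42%, 41.6 ± 1.97% and 39.7 ± 2.18%. Rpl36al, outside the naming rule, held 30.7 ± 1.18%, 32.2 ± 0.480% and 30.6 ± 0.795% of its pair with Rpl36a. Rps4l, listed as a transcribed pseudogene, held 19.5 ± 3.97%, 20.2 ± 4.11% and 18.1 ± 3.43% of its pair with Rps4x, and Rpl3l at most 0.0513% of the FPKM of Rpl3 and Rpl3l in any library. Over 27 tests of 9 pairs, no change in share had a Benjamini–Hochberg adjusted permutation p under 0.540. The smallest permutation p possible here is 0.1, so none of these tests could reach 0.05.

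**Figure D5:**
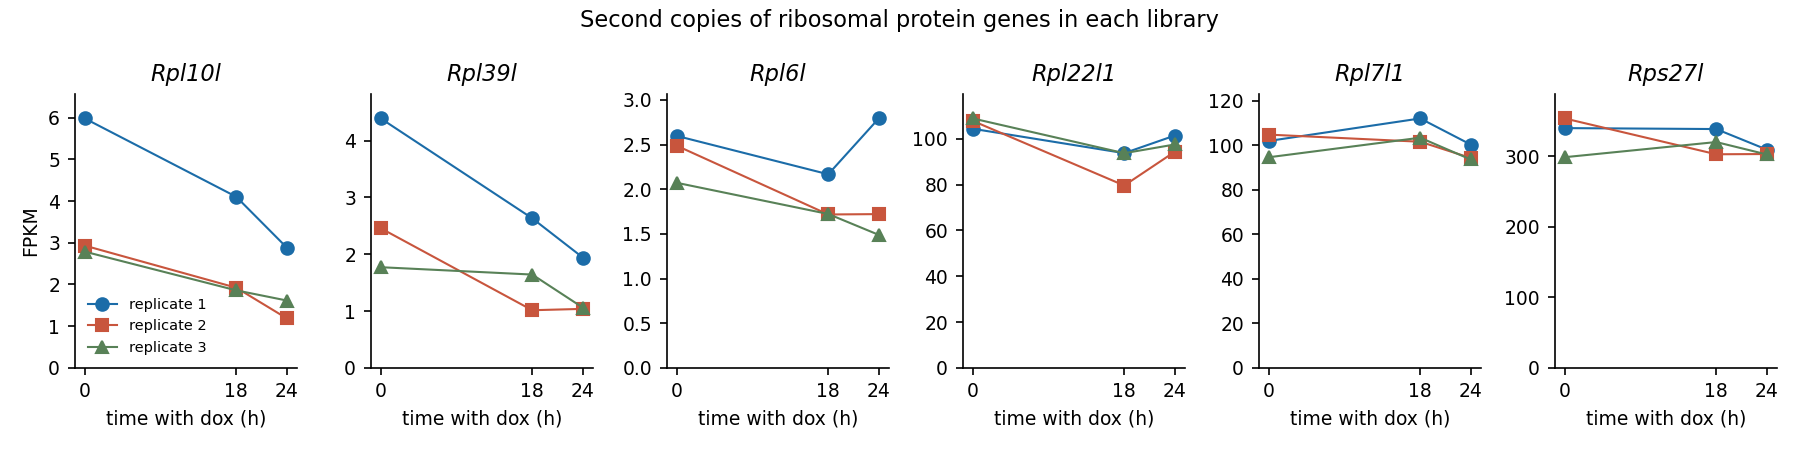
FPKM (from 0) of 6 second copies against time with dox (h), with lines joining the libraries of one replicate number. Rpl10l falls from 5.98 to 2.89 in replicate 1, each line of Rpl39l is lower at 24 h than at 0 h, and Rpl22l1 dips at 18 h.

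Other parts of the translation machinery were described through lists drawn up from general knowledge. Their counts at 24 h stand against a background of 5.11% of all genes called lower and 6.52% higher without the block, and 12.5% and 13.6% with it, and were not tested against it. At 18 h the background was 3.72% and 4.27% without the block, and 10.7% and 10.8% with it. Of 96 measured factors of ribosome assembly and RNA polymerase I, limma without the block called 27 lower and 0 higher at 24 h, and 59 lower with the block, with a median log2 fold-change of -0.20. At 18 h it called 7 lower and 1 higher. Nop56, a core protein of box C/D snoRNPs, changed by -0.30 (SE 0.080, limma adjusted p 0.0405) and Ncl, the nucleolar protein nucleolin, by -0.30 (SE 0.084, limma adjusted p 0.0476) at 24 h. Of 76 mitochondrial ribosomal protein genes, 14 were called lower at 24 h without the block and 40 with it, with a median of -0.17. Of 46 initiation factors, 10 were called lower at 24 h without the block, and 17 lower and 1 higher with it, with a median of -0.12. Under quantile normalization the counts called lower at 24 h without the block were 11 assembly factors, 6 mitochondrial ribosomal protein genes and 2 initiation factors, with medians of -0.13, -0.14 and -0.032, and with median centring they were 39, 32 and 18. The medians of the first and second of these lists were thus further from 0 than that of the ribosomal protein genes at 24 h, and no test of that difference was made.

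Of 14 elongation and termination factors, 1 was called lower at 24 h without the block and 5 with it (median -0.075, but 0.020 under quantile normalization). Of 22 other genes with a 5′ terminal oligopyrimidine tract, 2 were called lower at 24 h without the block, and 4 lower and 1 higher with it. The former were the snoRNA hosts Snhg1 (log2 fold-change -0.75, SE 0.087, limma adjusted p 0.00157) and Gas5 (-0.45, SE 0.086, 0.0125), and the list's median was -0.075, but 0.034 under quantile normalization. Of 7 ribosomal protein genes and relatives outside the naming rule, all were negative at both times, except under quantile normalization, where 4 were at 18 h and 5 at 24 h. Of them Rpl36a-ps1 was called lower at 24 h (-0.55, SE 0.13, limma adjusted p 0.0246). By edgeR without the block 0 of the 7 were called at 24 h, although the lowest log2 fold-change was -0.58. Fau, which codes for Rps30 fused to a ubiquitin-like protein, measured 711.6 ± 45.9 FPKM at 0 h and 605.8 ± 92.0 at 24 h and was called with the block alone (limma adjusted p 0.0217).

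Genes that govern ribosomal protein synthesis were described in the same way. Of 11 genes of the MYC family and its partners, 1 was called lower and 1 higher at 24 h by limma without the block, and 3 lower and 3 higher with it. Myc measured 25.8, 26.0 and 23.7 FPKM at 0 h and 15.5, 16.8 and 15.7 at 24 h, with no overlap (log2 fold-change -0.65, SE 0.077, limma adjusted p 0.00162). Mxd4, which antagonises MYC at E-boxes, rose from 0.852 ± 0.233 to 2.11 ± 0.198 FPKM (1.24, SE 0.18, limma adjusted p 0.00416). Of 23 mTORC1 genes, regulators and binders of oligopyrimidine mRNAs, 1 was called lower and 3 higher at 18 h without the block, and 5 and 3 with it. At 24 h 5 were called lower and 2 higher without the block, and 5 and 3 with it, but 2 and 2 under quantile normalization without the block. Among them Sesn3, a sestrin that restrains mTORC1, rose from 2.72 ± 0.287 to 5.86 ± 0.702 FPKM (1.08, SE 0.13, limma adjusted p 0.00219). Of 22 p53 targets, which can respond to disturbed ribosome assembly and which include Rps27l, 4 were called higher and 1 lower at 18 h without the block, and 11 higher and 1 lower with it. At 24 h 1 was called higher and 2 lower, and 5 and 3 with the block. The one called higher at 24 h without it, Btg2, went from 19.6 ± 5.23 to 39.6 ± 4.01 FPKM (1.04, SE 0.16, limma adjusted p 0.00554). The genes named here from the lists as called by limma without the block, and Tcf3, were also called with it. Nop56, Ncl, Snhg1, Gas5, Rpl36a-ps1, Fau and Myc were named after their values were seen, as were Rpl35 and the members listed for not overlapping.

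The libraries of replicate 1 stood apart in the members. Without dox 74 of the 83 members were highest in replicate 1, as were 32.7% of all genes. After 18 h of dox 82 members were, with 39.0% of all genes, and after 24 h all 83 were, with 38.4%. Pou5f1 was also highest in replicate 1 at each time, at 432.6 FPKM at 0 h beside 335.6 and 345.7, and Acta2 lowest, at 19.6 beside 30.3 and 41.6. These are single genes from the lists of ESC and fibroblast markers. The replicate order of the other markers is not given, so these genes do not characterise the cells of replicate 1. The part of the differences between replicates in the time course was not tested beyond the same-numbered pairs given above.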

How the data were processed

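The authors made stranded mRNA libraries (HiSeq4000), trimmed reads with cutadapt 1.9, aligned them to GRCm38 by STAR with Ensembl gene models, and used edgeR 3.16.5. How strand and multiply aligned reads were counted is not given in the sources used here. The deposited FPKM values cover 47729 genes. A second table deposited by the authors gives, for 19210 genes, a signal per library (CPM by effective library size), whose values were whole multiples of 1 read for 100% of genes (tolerance 0.01), which gave back the reads. Its log2 fold-changes and p-values from the authors' comparisons were not used. Replicates differed beyond sampling noise (chi-square over degrees of freedom 5.39 to 16.3).

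limma 3.58.1 (R 4.3.3, intensity trend) was fitted to log2(FPKM + 0.1) of all 9 libraries, for 17951 genes whose mean FPKM reached 0.1, with Benjamini–Hochberg adjustment over all of them. Calls needed an adjusted p of at most 0.05. edgeR 4.0.16 (quasi-likelihood) and DESeq2 1.42.0 were run on the reads. Shares were compared by two-sided exact permutation of 3 against 3 libraries, without regard to replicate numbers. Replicate numbers were taken to pair the libraries, because the deviations of same-numbered libraries from their group means correlated in each of 9 pairs (r 0.211 to 0.548 over 11893 genes, against -0.399 to 0.110 for 18 other pairs), and blocked values are given for the members and, for other genes, with the counts of each list. Scripts were tested on simulated data. Genes named were the 5 highest and 5 lowest members by level and by fold-change at each time, members called, second copies, and list genes called with a log2 fold-change of at least 1 (up to 4 a list). The members and lists were chosen with earlier results of these data known. Alternatives were other pseudocounts (1, 0.01), filters, scalings, tools and samples left out. Every per-sample column was matched to a library. The study describes the replicates as separate biological experiments. A result for 1 member is not reported here.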

Additional observations from a re-analysis of the deposited data

How the results depend on the processing

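Without the replicate block, limma called 1 member lower at 18 h. The count was 2 with a pseudocount of 0.01, 2 with a mean FPKM of at least 1, 2 with median centring, 0 with no filter on low values, 0 under quantile normalization, 0 with no intensity trend, 0 in the fit to only those 2 time points, and 0 among members with at most 25% of 50-base stretches shared. edgeR called 2 (4.54% of all genes lower), DESeq2 3 (6.03%) and edgeR with the replicate block 34 (13.1%). Limma with the replicate block called 22 at 18 h (10.7%), 28 with median centring added (13.4%), and 5 lower and 1 higher with quantile normalization added (9.53% and 11.4%). At 24 h limma called 0, with median centring 2, edgeR 1, DESeq2 3 and edgeR with the block 47. With the replicate block limma called 37 at 24 h (12.5%), 67 with median centring added (19.7%) and 2 with quantile normalization added (11.3%). Over the 8 other settings of limma without the block, 1.59% to 6.09% of all genes were called lower at 18 h and 2.25% to 8.90% at 24 h. In the blocked fit, leaving out replicate 1, 2 or 3 at 0 h gave 35, 15 and 10 calls at 18 h, and leaving out those at 18 h gave 5, 6 and 6. For 24 h the same gave 44, 14 and 10, and 16, 9 and 6 (all lower, with 1 more higher at 18 h without replicate 2 at 0 h), where 4.47% to 9.59% of all genes were called lower at 18 h and 6.73% to 10.6% at 24 h. Without the block, leaving out 1 library gave 0 to 1 calls at each time (1.11% to 4.07% of all genes at 18 h, 1.74% to 4.65% at 24 h). The median log2 fold-change was -0.0055 at 18 h and 0.0029 at 24 h under quantile normalization, with or without the block. This scaling can itself remove a change that abundant genes share. The blocked fits after leaving out a library, those with another scaling and the restriction by shared stretches were chosen after seeing the data. The cause of these differences was not tested.

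With the replicate block the limma calls in the lists, lower and higher together, were as follows. At 18 h and 24 h they were 3 and 5 for elongation, 10 and 18 for initiation and 4 and 5 for other oligopyrimidine genes. They were 30 and 59 for ribosome assembly, 12 and 8 for p53 targets and 15 and 40 for mitochondrial ribosomal proteins. They were 8 for mTORC1 regulators at 18 h, 6 for the MYC family at 24 h and 2 for ribosomal proteins outside the naming rule at 24 h. Of the p53 targets 11 and 5 of these calls were higher, and 3 each of those for mTORC1 regulators and the MYC family. Without the block, edgeR called 0 ribosomal proteins outside the naming rule and 3 elongation factors at 24 h (6.05% of all genes lower). At 18 h it called 5 mitochondrial ribosomal proteins (4.54%).

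Quantile normalization turned the sign of Rps12 (0.036 at 18 h, 0.14 at 24 h), Rps4x (0.083, 0.11), Rps27l (0.076, 0.0023), Rpl37a (0.14, 0.11), Rpl11 (0.057, 0.088) and Rpl7 (0.0057, 0.051). It also turned that of Rpl13a at 18 h (0.012), and at 24 h of Rpl4 (0.032), Rpl10 (0.097), Rpl7l1 (0.058), Rpl39 (0.031), Rps27 (0.049) and Rpl36a (0.023). Rpl10 at 18 h was -0.035 with median centring and -0.00091 in DESeq2, and Rpl37a 0.00075 in edgeR. Leaving out 1 library gave both signs for Rpl10 (-0.042 to 0.039 at 18 h, -0.076 to 0.032 at 24 h), Rpl37a (-0.067 to 0.052, -0.12 to 0.024), Rpl11 at 18 h (-0.14 to 0.0098), Rps27l at 18 h (-0.11 to 0.0070), and at 24 h Rps4x (-0.096 to 0.014), Rpl7 (-0.087 to 0.00029) and Rps27 (-0.15 to 0.018).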
